A study of Rattus norvegicus with 9 samples.

Results

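The genes described here are those of the rat major histocompatibility complex, named RT1, together with the best known genes of antigen processing: Cd74, Ciita, B2m, Tap1, Tap2, Tapbp, Psmb8, Psmb9, Psmb10 and Ubd. A probe was a member when the RefSeq identifier in the array files led to a symbol that starts with RT1 or to one of those 10 genes. This gave 51 probes for 49 genes, 39 of them RT1 genes, out of 24684 probes that are not controls and 13903 genes named on the array. Class I chains had 30 probes for 29 genes, class I partners 8 probes for 7 genes, class II chains 10 probes, class II partners 2 probes and Ubd 1 probe. Only B2m and RT1-CE5 had 2 probes each.

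Class I molecules consist of a heavy chain and beta-2 microglobulin and show peptides from inside the cell to CD8 T cells and natural killer cells. Nearly every nucleated cell makes them. Their peptides are cut by the proteasome, whose immune form carries the subunits Psmb8, Psmb9 and Psmb10, are pumped into the endoplasmic reticulum by Tap1 and Tap2, and are loaded with the help of tapasin (Tapbp). Class II molecules pair an alpha with a beta chain, are held ready by the invariant chain Cd74, and show peptides from endosomes to CD4 T cells. Dendritic cells, macrophages and B cells carry most of the class II protein, and tubule cells of the kidney can make it under interferon gamma. The genes lie in a cluster in which alleles differ strongly between inbred strains.

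Total RNA came from kidneys of male rats of 3 strains, with 3 samples on 3 arrays per strain: the Dahl salt-sensitive rat (Dahl S), the spontaneously hypertensive rat (SHR) and the Dahl salt-resistant rat (Dahl R). Dahl S raises its blood pressure on a salty diet, SHR raises it without added salt, and Dahl R is the Dahl line selected against that response. All rats shared one birth day and were weaned at 30 days. They then ate low-salt chow (0.3%) up to an age of 53 days, and no group received a high-salt diet. Copies of 1 μg of RNA carried the dye Cy3 on one-colour arrays for messenger and long noncoding RNAs. Whether rats had a litter or an extraction in common is not given, so p-values measure the spread between these samples, which may be technical in part.

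A level below is the log2 of a probe's processed signal relative to the 75th percentile of its own array, so 0 stands for a probe at that percentile. Probes differ in brightness for reasons other than RNA amount, and levels were compared between strains for 1 probe at a time, never between probes. A difference is in log2 units, the first strain minus the second, with its standard error (SE). It was tested with limma over 16592 probes, and a probe was called at a Benjamini-Hochberg adjusted p at or under 0.05. The confidence intervals are at 95%.

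The promoters are shown first, because class II chains and class I partners share letters there that the choice of the members did not use. Transcription of class II genes runs through an X box and a Y box just before the start, where RFX, CREB and NF-Y gather Ciita, which also raises class I promoters. Interferon acts on many class I genes through the interferon-stimulated response element. RefSeq promoter windows of the GRCr8 build, from 250 bases before to 50 bases after the start, were found for 45 of the 49 genes. On either strand, the Y box CTGATTGG stood in 7 of 9 class II chain windows, 10 of 27 class I chain windows and 3.5% of all 33469 windows. It ran in the direction of the gene in all these class II chain windows and on the opposite strand in all these class I chain windows. The core of the X box, CCNAGNNAC, stood in 5 of 9 class II chain windows, 8 of 27 class I chain windows and 17.7% of all windows. These counts include cores after the start, which were the only ones in RT1-Db2, RT1-CE13, RT1-S3 and RT1-T24-3. The interferon element, GAAA and GAAA with 2 bases between them, stood in 6 of 7 class I partner windows, 2 of 27 class I chain windows, 0 of 9 class II chain windows and 3.92% of all windows. Only these letters were searched for. A window without them, as in most class I chains, may still hold a looser form of the element. A kappa B site, GGGA and CCC with 3 bases between them, stood in 9 of 27 class I chain windows, 2 of 9 class II chain windows and 5.57% of all windows. None of the 4 motifs was found in the Ubd window, which says only that these letters are not in it. The class I partner window with the Y box was that of Psmb9, where it lay 19 bases after the start.

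The windows of the 2 class II pairs are printed because 1 chain of each pair was called between SHR and the Dahl strains and the other was not, and those of Tap1 and Psmb9 because the genes start next to each other in opposite directions. All are from the RefSeq sequence of the GRCr8 build, 5′ to 3′ in the direction of the gene. Capitals mark the X box core and Y box in the class II windows and the interferon element in that of Tap1.
RT1-Ba, chr20:4576807-4577106, plus strand: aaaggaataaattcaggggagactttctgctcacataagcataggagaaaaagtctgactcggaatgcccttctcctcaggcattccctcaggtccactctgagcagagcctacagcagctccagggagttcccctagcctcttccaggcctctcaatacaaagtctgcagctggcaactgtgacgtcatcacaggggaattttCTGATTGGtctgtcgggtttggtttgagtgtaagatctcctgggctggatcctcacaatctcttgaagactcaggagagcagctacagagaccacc
RT1-Bb, chr20:4604069-4604368, minus strand: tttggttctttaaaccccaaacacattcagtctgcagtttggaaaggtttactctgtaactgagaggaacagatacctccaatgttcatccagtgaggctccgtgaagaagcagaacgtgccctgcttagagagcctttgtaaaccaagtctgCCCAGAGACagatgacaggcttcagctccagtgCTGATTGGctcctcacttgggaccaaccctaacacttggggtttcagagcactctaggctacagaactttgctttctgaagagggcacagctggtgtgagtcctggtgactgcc
RT1-Da, chr20:4515165-4515464, plus strand: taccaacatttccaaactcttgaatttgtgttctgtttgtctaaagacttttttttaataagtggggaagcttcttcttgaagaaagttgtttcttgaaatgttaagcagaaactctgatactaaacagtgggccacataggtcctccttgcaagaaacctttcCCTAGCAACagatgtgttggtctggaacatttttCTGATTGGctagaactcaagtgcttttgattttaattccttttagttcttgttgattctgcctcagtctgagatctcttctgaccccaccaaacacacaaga
RT1-Db1, chr20:4560113-4560412, minus strand: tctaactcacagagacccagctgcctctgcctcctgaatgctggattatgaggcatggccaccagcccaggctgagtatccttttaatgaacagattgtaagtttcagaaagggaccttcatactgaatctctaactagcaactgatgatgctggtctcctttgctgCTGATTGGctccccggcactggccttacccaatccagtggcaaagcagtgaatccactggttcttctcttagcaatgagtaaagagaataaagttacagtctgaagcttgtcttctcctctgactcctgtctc
Tap1, chr20:4668494-4668793, minus strand: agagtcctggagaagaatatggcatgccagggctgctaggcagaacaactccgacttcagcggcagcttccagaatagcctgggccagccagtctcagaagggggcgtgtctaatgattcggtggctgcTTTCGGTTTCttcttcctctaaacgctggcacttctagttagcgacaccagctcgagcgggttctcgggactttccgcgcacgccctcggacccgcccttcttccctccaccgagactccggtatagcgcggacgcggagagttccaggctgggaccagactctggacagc
Psmb9, chr20:4668750-4669049, plus strand: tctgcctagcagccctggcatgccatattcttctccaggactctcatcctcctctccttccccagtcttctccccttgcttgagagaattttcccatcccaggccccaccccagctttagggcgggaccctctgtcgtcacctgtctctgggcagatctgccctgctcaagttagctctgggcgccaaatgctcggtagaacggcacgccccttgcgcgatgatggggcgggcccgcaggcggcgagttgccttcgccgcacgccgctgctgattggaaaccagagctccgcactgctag

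The Y box began 46 bases before the start of RT1-Ba, 64 before that of RT1-Bb, 52 before that of RT1-Da and 83 before that of RT1-Db1, always in the direction of the gene. An X box core lay upstream of it in RT1-Bb, 97 bases before the start, and in RT1-Da, 86 bases before it. The X box core and the Y box did not overlap in either. In RT1-Ba and RT1-Db1 the letters of the X box core were not found in the window. Looser matches were not searched for, so an X box may still be there. The Tap1 window held the interferon element 121 bases before the start, on the opposite strand, and overlapped the Psmb9 window by 44 bases. Psmb9 was the class I partner whose window lacked the interferon element. These windows belong to the reference strain of the build, and the promoters of the 3 strains measured here were not analysed.

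The arrays themselves set a limit on every result with SHR. SHR replicate 3 had 43.1% of its probes well above background, against 60.1% to 70.3% on the other 8 arrays, and a local background of 88, against 43 to 45. Its correlation with the other arrays was 0.920 to 0.956, and 11 member probes had no usable spot on it. The 6 member probes too dim to test read -4.79 to -4.39 on it and -9.36 to -6.47 on the other arrays, so a dim probe reads higher there. Dahl S replicate 1 stood apart to a lesser degree, which limits results with Dahl S. It correlated at 0.967 to 0.974 with the other Dahl arrays, which correlated at 0.988 to 0.997 with one another. Arrays with the same scan identifier in the scanner output were taken to share a slide. The Dahl S animals and Dahl R replicate 1 shared slide 1, Dahl R replicates 2 and 3 shared slide 2 with SHR replicates 1 and 2, and SHR replicate 3 was alone on slide 3. Dahl S and SHR therefore shared no slide. A fit with the slide as a block compares arrays within slides only. There, SHR against Dahl R rested on slide 2, and Dahl S against Dahl R on slide 1, where Dahl R had replicate 1 alone. Dahl S against SHR was joined from both through Dahl R, and SHR replicate 3 entered none of these differences. All 11 tested kidney genes of a list of tubule and glomerulus markers were well above background on all 9 arrays.

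Of the 51 probes, 45 could be tested. The other 6, for RT1-M1-2, RT1-M1-4, RT1-M5, RT1-M6-1, RT1-M6-2 and RT1-T18, are class I chains. Of these, 5 were well above background on 0 arrays and RT1-M6-1 on 1. Between Dahl S and Dahl R, 0 of the 45 probes were called, against 1.4% of all tested probes, with 0.705% higher and 0.699% lower in Dahl S. Between Dahl S and SHR, 17 were called, 7 higher and 10 lower in Dahl S, against 15.7% of all probes, with 7.08% higher and 8.62% lower. Between SHR and Dahl R, 17 were called, 11 higher and 6 lower in SHR, against 13% of all probes, with 7.56% higher and 5.49% lower. The calls reached a 2-fold difference for 14 members between Dahl S and SHR, against 6.97% of all probes, and for 16 between SHR and Dahl R, against 5.5%. Between Dahl S and Dahl R these were 0 members and 0.922% of all probes. The values of the strains did not overlap for 27 of 45 members in each comparison with SHR, against 37.9% of all probes between Dahl S and SHR and 38.7% between SHR and Dahl R. Leaving out SHR replicate 3, the member counts were 0, 22 and 19 in this order of comparisons, against 4.59%, 26.2% and 22.7% of all probes. With the slide as a block they were 0, 15 and 19, against 0.988%, 5.22% and 16%. Both comparisons with SHR use the same 3 SHR arrays, so each is given with its own values.

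Of the 10 class II chains, 0 were called between Dahl S and Dahl R, where the differences ran from -0.69 (RT1-Ha) to 0.41 (RT1-Da), and 2 were called in each comparison with SHR. Over all tested probes, 1.4% were called between Dahl S and Dahl R, 15.7% between Dahl S and SHR and 13% between SHR and Dahl R. RT1-Bb and RT1-Db1, both beta chains, were called in both comparisons with SHR, and SHR was the lower strain. Their alpha chain partners, RT1-Ba and RT1-Da, were bright on all 9 arrays and were not called in any comparison. In kidney RNA, fewer cells of a type and less RNA per cell cannot be told apart. Without probe sequences, how well a class II probe matches the allele of each strain was not tested, and this holds for Ubd too. A low signal may therefore not be a low RNA amount.

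RT1-Bb is the beta chain of the rat class II molecule RT1-B, the counterpart of human DQ. Its level was 4.71, 4.66 and 4.51 in Dahl S kidneys, -6.36, -6.79 and -3.22 in SHR kidneys, and 4.57, 4.34 and 4.20 in Dahl R kidneys. In SHR the probe was well above background on 1 array, replicate 1, and the value of -3.22 came from SHR replicate 3 with its raised floor. No SHR value came near those of the Dahl strains. The difference was 10.08 ± 0.82 (SE) between Dahl S and SHR (limma adjusted p 0.000243) and -9.83 ± 0.82 between SHR and Dahl R (adjusted p 0.000327). Since the SHR values of replicates 2 and 3 were not well above background, no fold is given. Leaving out SHR replicate 3 gave 11.20 and -10.95. With the slide as a block they were 10.90 and -10.85, and the latter is the difference between the SHR and Dahl R arrays within slide 2. Between Dahl S and Dahl R the difference was 0.26, with an interval of -1.65 to 2.16, the values of the 2 strains overlapped, and the width of that interval comes from the spread of the SHR values, since all arrays share one fit.

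The alpha chain RT1-Ba, which pairs with RT1-Bb, had levels of 5.45, 5.51 and 5.53 in Dahl S kidneys, 5.52, 5.47 and 5.48 in SHR kidneys, and 5.35, 5.26 and 5.16 in Dahl R kidneys. Dahl S and SHR overlapped, and Dahl R was the lowest. Its difference between Dahl S and SHR was 0.00, with an interval of -0.19 to 0.20. Dahl S exceeded Dahl R by 0.24 ± 0.08 (adjusted p 0.346), without overlap of the 6 values, and SHR exceeded Dahl R by 0.24 ± 0.08 (adjusted p 0.117).

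RT1-Db1, the beta chain of RT1-D, the counterpart of human DR, stood at 4.45, 4.39 and 4.20 in Dahl S kidneys, 2.73, 2.54 and 1.83 in SHR kidneys, and 4.22, 4.22 and 4.05 in Dahl R kidneys. All SHR values were below all Dahl values and well above background. The difference was 1.98 ± 0.22 between Dahl S and SHR (adjusted p 0.00114), 3.94-fold, and -1.80 ± 0.22 between SHR and Dahl R (adjusted p 0.00208), 3.48-fold. On SHR replicates 1 and 2 alone these were 1.71 and -1.53. Between Dahl S and Dahl R the interval ran from -0.33 to 0.69.

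RT1-Da, the alpha chain that pairs with the RT1-D beta chains, had levels of 6.02, 5.74 and 5.68 in Dahl S kidneys, 6.02, 5.69 and 6.37 in SHR kidneys, and 5.56, 5.33 and 5.32 in Dahl R kidneys. Dahl R was lowest on all its arrays. SHR exceeded Dahl R by 0.62 ± 0.18 (adjusted p 0.0672), which became 0.79 with adjusted p 0.0295 without SHR replicate 2. That difference passed in 5 of 21 alternatives, among them quantile normalization and the authors' table of log2 values, and not in the others. Dahl S exceeded Dahl R by 0.41 ± 0.18 (adjusted p 0.51). Dahl S and SHR overlapped, with an interval of -0.64 to 0.22.

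RT1-Db2, a second beta chain gene of RT1-D, was dim. Its levels were -5.16, -5.07 and -5.45 in Dahl S kidneys, -3.57, -5.35 and -4.09 in SHR kidneys, and -5.12, -5.54 and -5.51 in Dahl R kidneys. It was not called, but without SHR replicate 2 the difference was -1.40 between Dahl S and SHR (adjusted p 0.0101) and 1.56 between SHR and Dahl R (adjusted p 0.00748). The value of SHR replicate 3 was not well above background.

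The peptide loaders of class II, RT1-DMa and RT1-DMb, were bright in all strains. RT1-DMa averaged 2.88 ± 0.11 in Dahl S kidneys, 2.64 ± 0.21 in SHR kidneys and 2.66 ± 0.09 in Dahl R kidneys (SD, n = 3 each). RT1-DMb averaged 3.30 ± 0.13, 3.20 ± 0.08 and 3.19 ± 0.02 in the same order. Neither was called in any of the 3 comparisons. When SHR replicate 3 was left out, RT1-DMa was higher in Dahl S than in SHR by 0.35 (adjusted p 0.0388). RT1-DOa and RT1-DOb, whose protein restrains RT1-DM, had levels between -6.09 and -3.84 over all arrays, and RT1-Ha between -4.61 and -2.58. These 3 probes were at the edge of detection on some arrays, and none was called.

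Cd74, the invariant chain, had levels of 3.04, 3.02 and 2.92 in Dahl S kidneys, 3.23 on the 1 SHR array with a usable spot, and 2.74 and 2.43 on the 2 usable Dahl R arrays. The fit left out the other spots. Dahl S exceeded Dahl R by 0.41 ± 0.14 (adjusted p 0.424), and the SHR array exceeded Dahl R by 0.65 ± 0.19 (adjusted p 0.107). The lone SHR value is assumed to vary like those of the other strains, which supply the spread. Leaving out SHR replicate 3 removed no Cd74 value and left the difference at 0.65. The slide as a block gave 0.80, which is 1 SHR array against 1 Dahl R array on slide 2. Between Dahl S and SHR the difference was -0.24, but 0.24 with the authors' table. Ciita, the transactivator of class II genes, was dim, at -4.19 ± 0.10 in Dahl S, -4.76 ± 0.52 in SHR and -4.63 ± 0.18 in Dahl R kidneys (SD, n = 3 each). Its difference was 0.57 ± 0.25 between Dahl S and SHR (adjusted p 0.156) and -0.14 ± 0.25 between SHR and Dahl R (adjusted p 0.745). Neither Cd74 nor Ciita was called lower in SHR, as RT1-Bb and RT1-Db1 were.

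**Figure D1:**
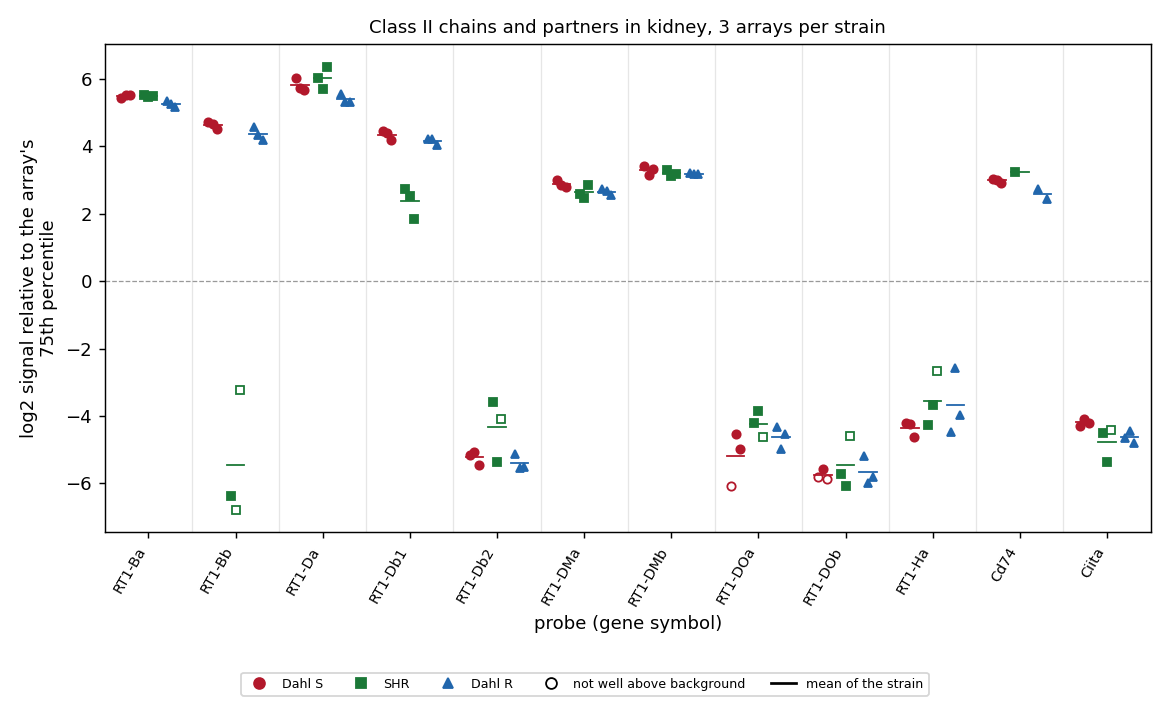
Level (log2 of processed signal over the 75th percentile of its array) of the 10 class II chains, Cd74 and Ciita on each array; points are arrays, open points were not well above background, and bars are strain means. RT1-Bb and RT1-Db1 lie lower in SHR than in both Dahl strains, while RT1-Ba lies between 5.16 and 5.53 on all 9 arrays.

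Some leukocyte markers were also lower in SHR. Of a list of 43 leukocyte markers, 32 were tested. Dahl S exceeded SHR for 8 and was lower for 0 of them, and SHR was higher than Dahl R for 1 and lower for 5, beside 15.7% and 13% of all probes called. The summed linear signal of 27 markers measured on all arrays was 85.2 to 96.4 in Dahl S, 62.6 to 78.3 in SHR and 80.2 to 85.8 in Dahl R kidneys. Bright probes weigh most in such a sum, and it lacks markers without a usable spot on every array. Of those, Lyz2 (levels of 6.13 to 6.60), Fcer1g, Cd68 and Ptprc overlapped between Dahl S and SHR, and Aif1 was lower in SHR. The dendritic cell receptor Clec9a was higher in Dahl S than in SHR by 1.45 ± 0.17 (adjusted p 0.0014), and the macrophage receptor Mrc1 by 1.29 ± 0.15 (adjusted p 0.0013). Tyrobp, an adaptor of myeloid receptors, differed by -0.68 ± 0.10 between SHR and Dahl R (adjusted p 0.00598). Itgam, an integrin of myeloid cells, went the other way, at 1.09 ± 0.28 between SHR and Dahl R (adjusted p 0.0425), and was dim. Cd86, a marker of antigen-presenting cells, was well above background on only 2 arrays and was not tested. It also read higher in SHR, at -6.93 to -6.68 in Dahl S, -4.54 to -4.19 in SHR and -7.37 to -6.76 in Dahl R kidneys. Cd80, Cd163 and Xcr1 were not well above background on any array. The part of leukocyte number in the class II differences was not tested. With the slide as a block, 1 leukocyte marker was higher and 0 were lower in Dahl S than in SHR, beside 5.22% of all probes called. In the same fit 1 was higher and 7 were lower in SHR than in Dahl R, beside 16%.

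Among the class I chains, the SHR kidneys stood apart from both Dahl strains in both directions. Of 24 tested probes, 3 were higher and 9 lower in Dahl S than in SHR, and 10 were higher and 3 lower in SHR than in Dahl R. Over all tested probes, 15.7% and 13% were called in these comparisons. No class I chain was called between Dahl S and Dahl R. The median difference of the 24 probes was -0.65 between Dahl S and SHR and 0.59 between SHR and Dahl R, beside -0.09 and 0.11 over all tested probes. The class I chains are close copies of one another, and a probe may catch more than 1 of them. The files hold no probe sequences, so which copy or allele a probe reports in each strain was not tested. Beside the losses given with each gene, normexp background correction ended the calls of RT1-CE2, RT1-CE10 and RT1-N2 in both comparisons with SHR, of RT1-CE11 between Dahl S and SHR, and of RT1-A1 and RT1-T24-3 between SHR and Dahl R. Quantile normalization and the authors' table each ended the calls of RT1-CE2, RT1-N2 and RT1-T24-3 between SHR and Dahl R. Quantile normalization also ended that of RT1-N2 between Dahl S and SHR. Other settings ended some of these calls too, and not all such losses are listed.

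Most of these calls fell on the RT1-CE family, class I genes between the RT1-T24 genes and the class II chains. Of its 13 probes, 2 were higher and 8 lower in Dahl S than in SHR, and 7 were higher and 2 lower in SHR than in Dahl R. RT1-CE15 had levels of 1.21, 1.15 and 1.33 in Dahl S kidneys, 4.28 and 3.96 on the 2 usable SHR arrays, and 1.35, 1.20 and 1.06 in Dahl R kidneys. The Dahl strains overlapped, and SHR lay well above both. The difference was -2.89 ± 0.14 between Dahl S and SHR (adjusted p 7.87e-05), 7.40-fold, and 2.92 ± 0.14 between SHR and Dahl R (adjusted p 7.92e-05), 7.56-fold. Between Dahl S and Dahl R the interval was -0.28 to 0.34.

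RT1-CE5 had 2 probes, of which 1 was called. Probe B read -1.82, -1.45 and -1.64 in Dahl S kidneys, 1.47 and 1.00 on the 2 usable SHR arrays, and -1.85, -1.55 and -1.64 in Dahl R kidneys, a difference of -2.87 ± 0.19 between Dahl S and SHR (adjusted p 0.000224) and 2.91 ± 0.19 between SHR and Dahl R (adjusted p 0.00024). Probe A, for another transcript of the gene, was well above background on 0 Dahl S, 2 SHR and 1 Dahl R arrays. Its difference between Dahl S and SHR was -1.60 ± 0.53 (adjusted p 0.0831), or at least 1.56-fold. That bound rests on SHR replicate 3, whose value was not well above background, and without this array no bound remained, with a difference of -0.93 (adjusted p 0.0346).

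RT1-CE3 was measured on all SHR arrays. It stood at -3.54, -3.74 and -3.84 in Dahl S kidneys, -0.92, -1.48 and -1.10 in SHR kidneys, and -3.71, -3.82 and -3.59 in Dahl R kidneys. The SHR values were above all others, by 2.54 ± 0.16 against each Dahl strain (adjusted p 8.61e-05 against Dahl S and 9.13e-05 against Dahl R), 5.81-fold. With normexp background correction the difference between Dahl S and SHR was -1.46 and its call was lost (adjusted p 0.103). Within slide 2 the difference between SHR and Dahl R was 2.51.

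RT1-CE1, RT1-CE12, RT1-CE13 and RT1-CE16 had no usable spot on SHR replicate 3 and showed the same order on the others. RT1-CE1 read 0.91, 1.17 and 1.26 in Dahl S kidneys, 3.44 and 3.23 in SHR kidneys, and 1.18, 1.11 and 0.92 in Dahl R kidneys. RT1-CE13 read -1.96, -1.67 and -1.56 in Dahl S kidneys, 0.56 and 0.23 in SHR kidneys, and -1.78, -1.72 and -1.78 in Dahl R kidneys. The Dahl strains overlapped for both. The difference between Dahl S and SHR was -2.22 ± 0.15 for RT1-CE1, -1.86 ± 0.14 for RT1-CE12, -2.12 ± 0.16 for RT1-CE13 and -1.09 ± 0.13 for RT1-CE16, with adjusted p from 0.000249 to 0.00232. SHR exceeded Dahl R by 2.26 for RT1-CE1, 1.97 for RT1-CE12 and 2.15 for RT1-CE13, and 2.14-fold for RT1-CE16, with adjusted p from 0.000273 to 0.00259. Normexp background correction ended the call of RT1-CE16 between SHR and Dahl R (adjusted p 0.0683).

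RT1-CE2 and RT1-CE10 ran the other way. SHR was the lower strain for both. RT1-CE2 had levels of -0.76, -0.84 and -0.79 in Dahl S kidneys, -3.18, -3.35 and -1.51 in SHR kidneys, and -1.27, -0.91 and -1.02 in Dahl R kidneys. SHR replicate 3 lay nearer to the Dahl arrays than the other 2 SHR arrays did. The difference was 1.88 ± 0.43 between Dahl S and SHR (adjusted p 0.0251) and -1.61 ± 0.43 between SHR and Dahl R (adjusted p 0.0489), and without SHR replicate 3 it was 2.47 and -2.20. The second call was lost on leaving out any array other than SHR replicate 3 (adjusted p up to 0.154), and the first on leaving out any of 5 arrays, the Dahl S arrays and SHR replicates 1 and 2 (adjusted p up to 0.077).

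RT1-CE10 had levels of -3.64, -3.28 and -3.27 in Dahl S kidneys, -5.17, -5.26 and -4.15 in SHR kidneys, and -3.53, -3.45 and -3.71 in Dahl R kidneys. No SHR value reached those of a Dahl strain, and that of SHR replicate 3 was not well above background. The difference was 1.46 ± 0.29 between Dahl S and SHR (adjusted p 0.0134) and -1.29 ± 0.29 between SHR and Dahl R (adjusted p 0.0253). The first call was lost on leaving out Dahl S replicate 2 or 3 (1.40 each, adjusted p 0.0545 and 0.0518). The second was lost on leaving out any Dahl R array or SHR replicate 1 or 2, with differences of -1.37 to -1.09 and adjusted p up to 0.0969. Without SHR replicate 3 the differences were 1.82 and -1.65.

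RT1-CE11 and RT1-CE7 need their arrays named. RT1-CE11 read -3.23, -2.98 and -3.18 in Dahl S kidneys, -2.85, -2.26 and -2.10 in SHR kidneys, and -2.66, -2.61 and -2.61 in Dahl R kidneys. Dahl S was lowest, with no overlap. The difference was -0.73 ± 0.19 between Dahl S and SHR (adjusted p 0.0366), a call that was lost with the slide as a block (-0.53, adjusted p 0.431) and on leaving out any array other than SHR replicates 1 and 3 (adjusted p up to 0.11). The difference between Dahl S and Dahl R was -0.51 ± 0.19 (adjusted p 0.378). RT1-CE7 read -6.40, 0.94 and 1.12 in Dahl S kidneys, 1.99 and 1.81 on the 2 usable SHR arrays, and 0.58, 0.65 and 0.83 in Dahl R kidneys. The value of -6.40 on Dahl S replicate 1 was not well above background and gave the difference of -3.35 between Dahl S and SHR a SE of 2.14. Without that array the difference was -0.87 between Dahl S and SHR (adjusted p 0.0204) and 1.21 between SHR and Dahl R (adjusted p 0.0046). RT1-CE4 was not called, and its level lay between -1.05 and 0.04 on the 9 arrays.

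The RT1-A genes are the classical class I genes of the rat, and their 3 probes were bright on all arrays. RT1-A1 had levels of 6.65, 6.60 and 6.55 in Dahl S kidneys, 7.47, 7.32 and 7.35 in SHR kidneys, and 6.72, 5.37 and 6.54 in Dahl R kidneys. SHR was highest on each of its arrays, and Dahl R replicate 2 was 1 log2 unit or more below the other Dahl arrays. SHR exceeded Dahl R by 1.17 ± 0.32 (adjusted p 0.0494). That call was lost on leaving out any of 7 arrays, all but Dahl R replicates 1 and 2 (adjusted p 0.0612 to 0.0969). Without Dahl R replicate 2 the difference was 0.75 between SHR and Dahl R (adjusted p 0.0141) and -0.78 between Dahl S and SHR (adjusted p 0.00528), where the fit of all arrays gave -0.78 ± 0.32 (adjusted p 0.139).

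RT1-A2 and RT1-A3 were not called. RT1-A2 averaged 5.37 ± 0.06 in Dahl S kidneys, 5.71 ± 0.58 in SHR kidneys and 5.43 ± 0.06 in Dahl R kidneys (SD, n = 3 each), with the high SHR value, 6.37, on replicate 3. RT1-A3 averaged 6.81 ± 0.19, 7.09 ± 0.10 and 6.63 ± 0.16 in the same order, and SHR exceeded Dahl R by 0.46 ± 0.13 without overlap (adjusted p 0.0598). Without Dahl S replicate 1, whose values enter the shared spread, the same difference had an adjusted p of 0.0461. It passed in 6 of 21 alternatives, among them quantile normalization (adjusted p 0.0252) and the authors' table (adjusted p 0.0261), and not in the others.

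The remaining class I chains lie in the N, O, S and T24 groups and in the M region. RT1-O1 had levels of -1.95, -2.04 and -1.89 in Dahl S kidneys, -3.98, -4.51 and -4.44 in SHR kidneys, and -2.17, -2.02 and -2.01 in Dahl R kidneys. SHR lay below both Dahl strains on each array, and its value on replicate 3 was not well above background. The difference was 2.35 ± 0.15 between Dahl S and SHR (adjusted p 8.31e-05), 5.10-fold, and -2.24 ± 0.15 between SHR and Dahl R (adjusted p 0.000105), 4.74-fold. With normexp background correction the difference between SHR and Dahl R was -1.30 and its call was lost (adjusted p 0.0886).

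RT1-N2, close to RT1-O1 on the chromosome, ran the other way. Its levels were -3.73, -3.53 and -3.14 in Dahl S kidneys, -1.95, -2.36 and -2.92 in SHR kidneys, and -3.56, -3.46 and -3.33 in Dahl R kidneys. The difference was -1.05 ± 0.25 between Dahl S and SHR (adjusted p 0.0286) and 1.04 ± 0.25 between SHR and Dahl R (adjusted p 0.0353). The SHR replicate 3 value of RT1-N2 was not well above background. The first call was lost with the slide as a block (-1.14, adjusted p 0.142) and on leaving out Dahl S replicate 1 or 2, Dahl R replicate 2 or 3, or SHR replicate 1 or 2 (adjusted p up to 0.0942). The second was lost on leaving out Dahl S replicate 2, any Dahl R array, or SHR replicate 1 or 2 (adjusted p up to 0.117). Without SHR replicate 3 the differences were -1.31 and 1.29.

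RT1-T24-3 was called between SHR and Dahl R. It read -2.89, -2.67 and -2.59 in Dahl S kidneys, -1.93, -2.23 and -2.65 in SHR kidneys, and -2.95, -3.02 and -3.02 in Dahl R kidneys. SHR exceeded Dahl R by 0.73 ± 0.18 (adjusted p 0.0379), a call lost on leaving out Dahl S replicate 2 or 3, any Dahl R array, or SHR replicate 1 or 2 (adjusted p up to 0.123). Leaving out SHR replicate 3 gave 0.92 between SHR and Dahl R and -0.64 between Dahl S and SHR (adjusted p 0.0106), where the fit of all arrays gave -0.44 (adjusted p 0.139).

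RT1-S2 was well above background on 2 Dahl S, 0 SHR and 3 Dahl R arrays. Its levels were -5.66, -5.52 and -5.42 in Dahl S kidneys, -7.54, -7.01 and -4.65 in SHR kidneys, and -5.62, -5.87 and -5.88 in Dahl R kidneys. The value of -4.65 came from SHR replicate 3. The differences, 0.87 ± 0.65 between Dahl S and SHR (adjusted p 0.394) and -0.61 ± 0.65 between SHR and Dahl R (adjusted p 0.575), became 1.74 (adjusted p 0.000683) and -1.49 (adjusted p 0.00158) without that array, where Dahl S was at least 2.79-fold above SHR, and SHR was at least 2.34-fold below Dahl R.

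RT1-S3, RT1-T24-4 and RT1-M3-1 were bright in all strains, and RT1-T24-2 was dim. RT1-S3 lay between 1.35 and 1.63 on the 9 arrays, with an interval of -0.15 to 0.31 for Dahl S against SHR. RT1-M3-1, whose mouse counterpart presents peptides that start with formyl methionine, lay between 1.09 and 1.53. RT1-T24-4 averaged 4.13 in Dahl S kidneys, 4.01 on the 2 usable SHR arrays and 3.96 in Dahl R kidneys. None of these 4 probes was called.

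**Figure D2:**
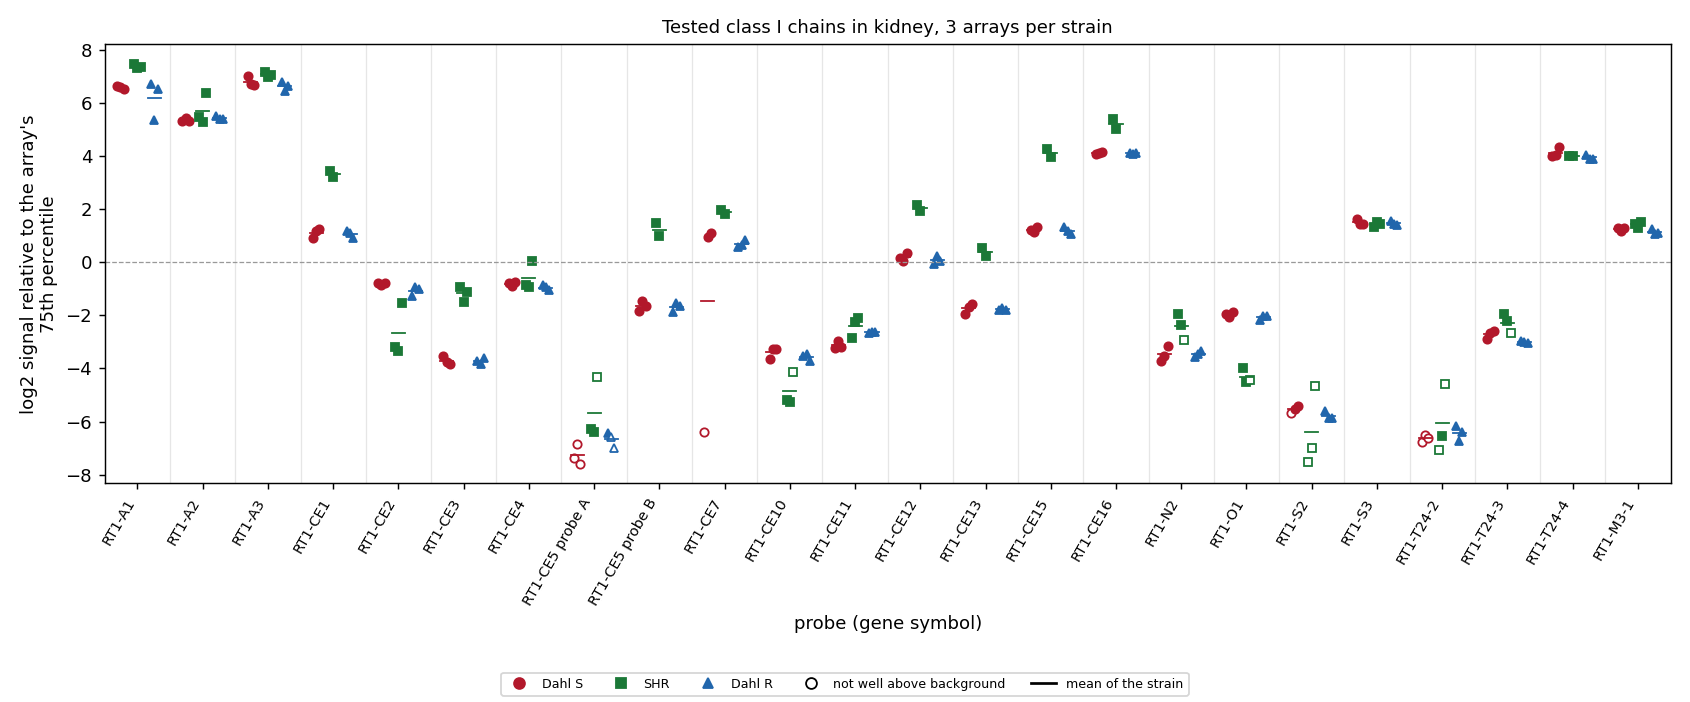
Level (log2 of processed signal over the 75th percentile of its array) of the 24 tested class I chain probes on each array; points are arrays, open points were not well above background, and bars are strain means. SHR lies higher for RT1-CE15, RT1-CE3 and RT1-CE5 probe B and lower for RT1-O1, and the RT1-CE7 mean of Dahl S is pulled down by the array at -6.40.

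Of the 8 class I partner probes, 1 was higher (B2m, 10 spots) and 1 lower (Tap1) in Dahl S than in SHR, 1 was higher in SHR than in Dahl R (Tap1), and 0 were called between Dahl S and Dahl R. The shares called over all tested probes were 15.7%, 13% and 1.4% in this order. Tap1, a subunit of the peptide pump, had levels of 1.99, 2.08 and 2.05 in Dahl S kidneys, 3.00, 2.82 and 2.84 in SHR kidneys, and 1.87, 1.86 and 1.87 in Dahl R kidneys. The 3 strains did not overlap. The difference was -0.85 ± 0.09 between Dahl S and SHR (adjusted p 0.000718), 1.80-fold, and 1.02 ± 0.09 between SHR and Dahl R (adjusted p 0.000345), 2.02-fold. With the percentile taken over spots without outlier marks the call between Dahl S and SHR was lost (-1.16, adjusted p 0.0614). Dahl S exceeded Dahl R by 0.17 ± 0.09 (adjusted p 0.582).

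Psmb9, whose printed window overlaps that of Tap1, did not rise with it in SHR. Its levels were 1.89, 1.65 and 1.43 in Dahl S kidneys, 1.31, 1.11 and 0.24 in SHR kidneys, and 1.49, 1.52 and 1.40 in Dahl R kidneys. All SHR values were below those of both Dahl strains, and SHR replicate 3 was the lowest. The difference was 0.77 ± 0.27 between Dahl S and SHR (adjusted p 0.0936), 0.45 without SHR replicate 3 (adjusted p 0.0587) and 0.99 without SHR replicate 1 (adjusted p 0.0447). Between SHR and Dahl R it was -0.59 ± 0.27 (adjusted p 0.201).

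Tap2, the other subunit of the pump, averaged -1.04 ± 0.31 in Dahl S kidneys, -1.22 ± 0.34 in SHR kidneys and -1.44 ± 0.23 in Dahl R kidneys (SD, n = 3 each). Its interval for SHR against Dahl R was -0.31 to 0.74, so a rise as large as that of Tap1 lay outside it. The proteasome subunit Psmb8 averaged 2.74 ± 0.04, 2.78 ± 0.35 and 2.64 ± 0.19 in the same order. Tapasin (Tapbp) read -0.04, -0.11 and -0.07 in Dahl S kidneys, -0.15, -0.40 and -1.74 in SHR kidneys, and -0.26, -0.18 and -0.34 in Dahl R kidneys. The low value came from SHR replicate 3, and the difference of 0.69 ± 0.36 between Dahl S and SHR (adjusted p 0.239) was 0.20 without it. Psmb10 read 3.53, 3.41 and 3.58 in Dahl S kidneys, 3.33 and 2.64 on SHR replicates 2 and 3, and 3.29, 3.48 and 3.40 in Dahl R kidneys. Its difference between Dahl S and SHR was 0.53 ± 0.20 (adjusted p 0.134). When SHR replicate 2 was left out, so that replicate 3 was the lone SHR value and the other strains supplied the spread, it was 0.87 between Dahl S and SHR (adjusted p 0.0185) and -0.75 between SHR and Dahl R (adjusted p 0.0308).

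B2m, the light chain of every class I molecule, was bright in all strains. The probe with 10 spots read 6.53, 6.46 and 6.44 in Dahl S kidneys, 6.12 and 6.06 on the 2 usable SHR arrays, and 6.49, 6.35 and 6.45 in Dahl R kidneys. SHR was lowest without overlap. The difference was 0.39 ± 0.10 between Dahl S and SHR (adjusted p 0.0413), 1.31-fold, and -0.34 ± 0.10 between SHR and Dahl R (adjusted p 0.0698). The call was lost in 17 of 21 alternatives. Among them were the slide as a block (0.30, adjusted p 0.282), quantile normalization (0.27, adjusted p 0.0596) and the authors' table (0.55, adjusted p 0.134). It was also lost on leaving out any array other than SHR replicate 3 (adjusted p up to 0.127). Without SHR replicate 3 both differences passed (adjusted p 0.0107 and 0.0196). The probe with 1 spot gave 0.41 ± 0.12 (adjusted p 0.0636, and 0.0252 without SHR replicate 3) and -0.29 ± 0.12 (adjusted p 0.178). B2m differed in the direction opposite to Tap1 and to most RT1-CE probes.

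Ubd, a ubiquitin-like protein that sends its targets to the proteasome and is induced by interferon gamma and tumour necrosis factor, lies among the RT1-M genes. Its levels were 1.72, 1.38 and 0.96 in Dahl S kidneys, -3.74, -5.22 and -3.58 in SHR kidneys, and 0.59, -0.10 and 0.38 in Dahl R kidneys. The 3 strains did not overlap, and the value of SHR replicate 3 was not well above background. The difference was 5.54 ± 0.44 between Dahl S and SHR (adjusted p 0.000227), 46.4-fold, and -4.47 ± 0.44 between SHR and Dahl R (adjusted p 0.000729), 22.2-fold. On SHR replicates 1 and 2 alone it was 5.84 and -4.77, and within slide 2 it was -4.62. Dahl S exceeded Dahl R by 1.06 ± 0.44, with an interval of 0.04 to 2.09 (adjusted p 0.448).

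**Figure D3:**
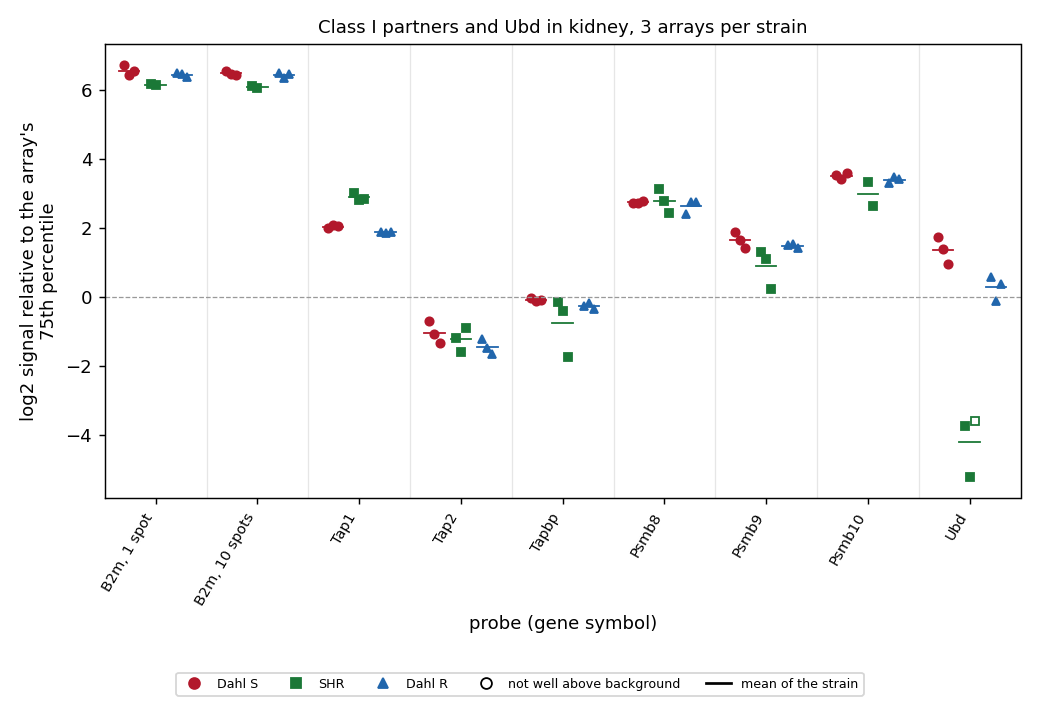
Level (log2 of processed signal over the 75th percentile of its array) of the class I partners and Ubd on each array; points are arrays, open points were not well above background, and bars are strain means. Tap1 lies higher and Ubd lower in SHR than in both Dahl strains, and SHR replicate 3 sets the low values of Tapbp and Psmb9.

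Between Dahl S and Dahl R, the difference was under 0.5 log2 units in size for 39 of the 45 probes. Its median was 0.12, beside 0.02 over all probes, and Dahl S had the higher mean for 35 of the 45. The ends of the range were -2.13 for RT1-CE7, with its 1 low array, and 1.06 for Ubd. At an unadjusted p under 0.05, 4 of the 45 probes passed, RT1-Ba, RT1-CE11, Cd74 and Ubd, beside 1742 of the 16592 tested probes, and the lowest adjusted p was 0.346. The values of the 2 strains did not overlap for 11 of 45 probes, against 31.1% of all probes. The widest intervals were those of RT1-CE7, RT1-Bb and RT1-S2, and all 3 held differences of 1 log2 unit in either direction.

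**Figure D4:**
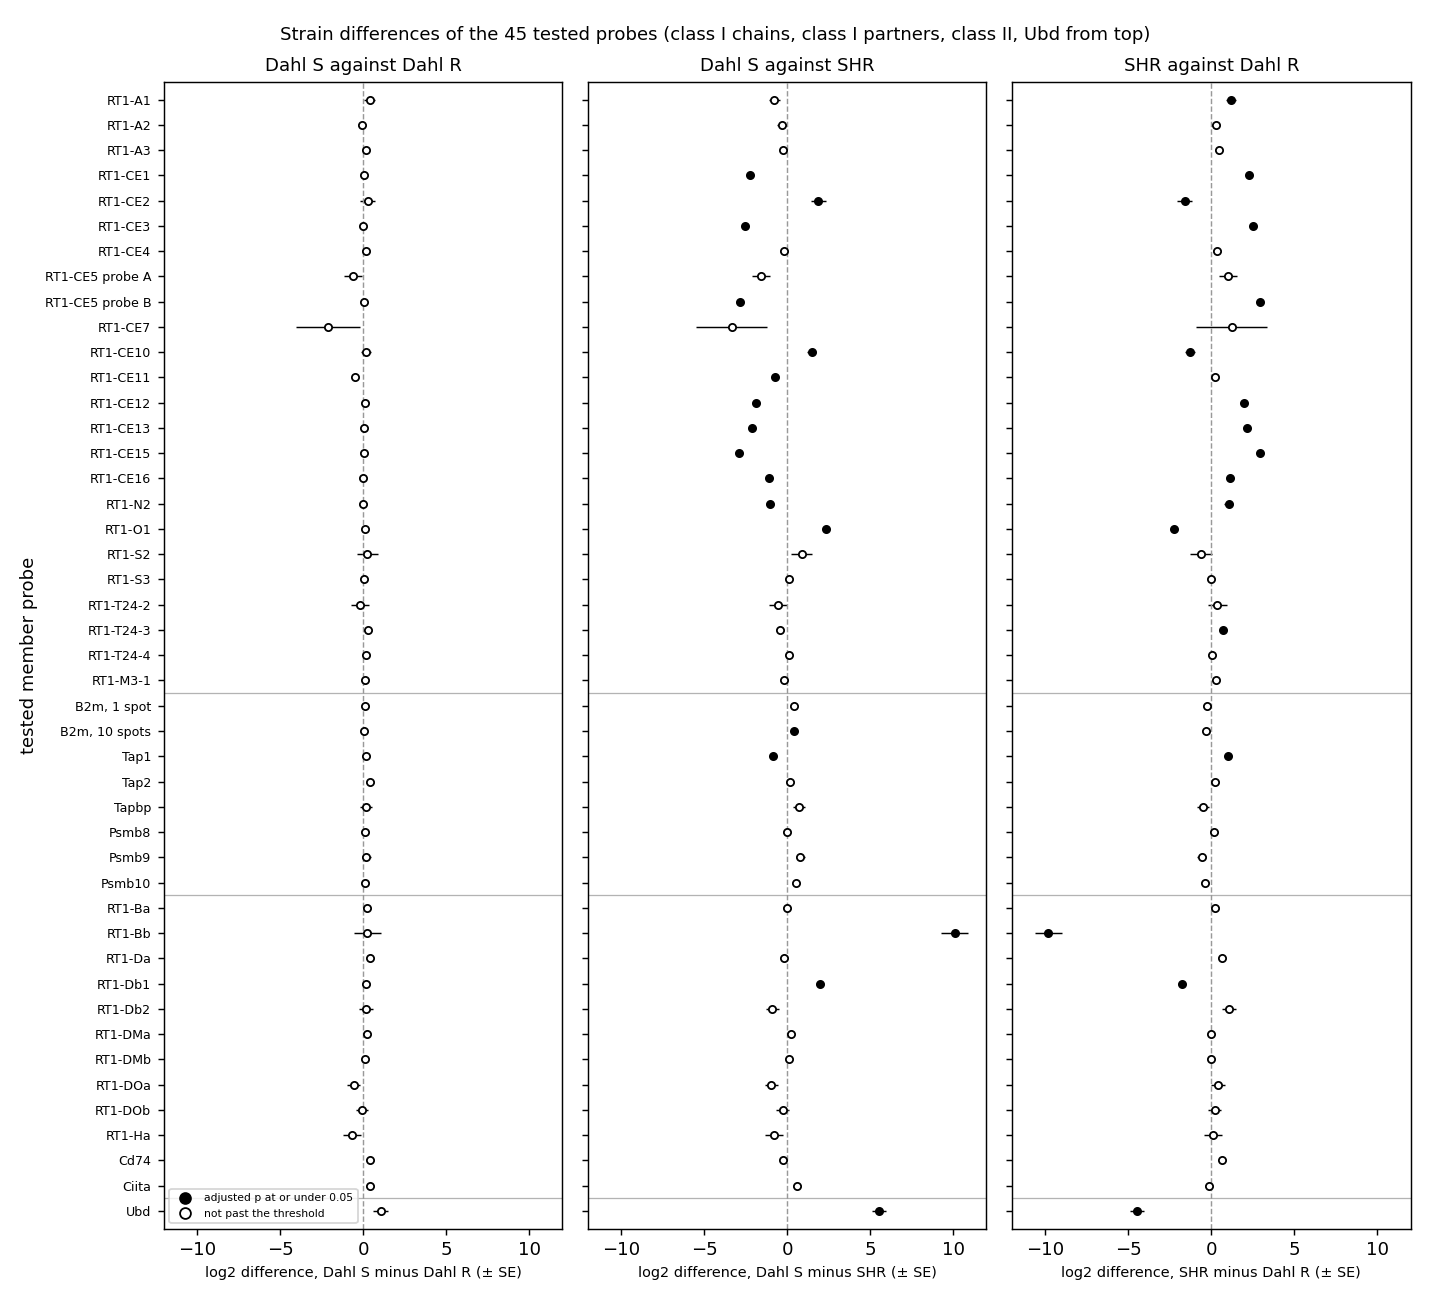
Difference of each of the 45 tested probes in the 3 comparisons (log2 units, first strain minus second), with SE bars; filled points passed an adjusted p of 0.05. No probe passed between Dahl S and Dahl R, and 17 passed in each comparison with SHR.

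Position was the other feature the members shared. On chromosome 20 of the GRCr8 annotation lie 45 of the 49 genes, with 46 of the probes, while Cd74, Ciita, B2m and Psmb10 lie elsewhere. The RT1-CE genes form one run, and within it RT1-CE10 and RT1-CE2, higher in Dahl S than in SHR, stand between genes that were lower. In the class II region the order is RT1-Da, RT1-Db2, RT1-Db1, RT1-Ba, RT1-Bb, RT1-DOb, Tap2, Psmb8, Tap1, Psmb9, RT1-DMb and RT1-DMa, so the called genes RT1-Db1, RT1-Bb and Tap1 each lie next to genes that were not called. Among the other genes between the first and the last RT1 gene, 94 were tested and are no members. Of these, 4 were higher and 8 lower in Dahl S than in SHR, and 10 were higher and 3 lower in SHR than in Dahl R, beside 15.7% and 13% called over all probes. With the slide as a block these were 2 and 3, and 11 and 4, beside 5.22% and 16% of all probes called. They included C4a, a complement gene with the close copy C4b, at 1.50 ± 0.18 between Dahl S and SHR (adjusted p 0.0015), and Ly6g6c at -1.84 ± 0.20 (adjusted p 0.000987).

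**Figure D5:**
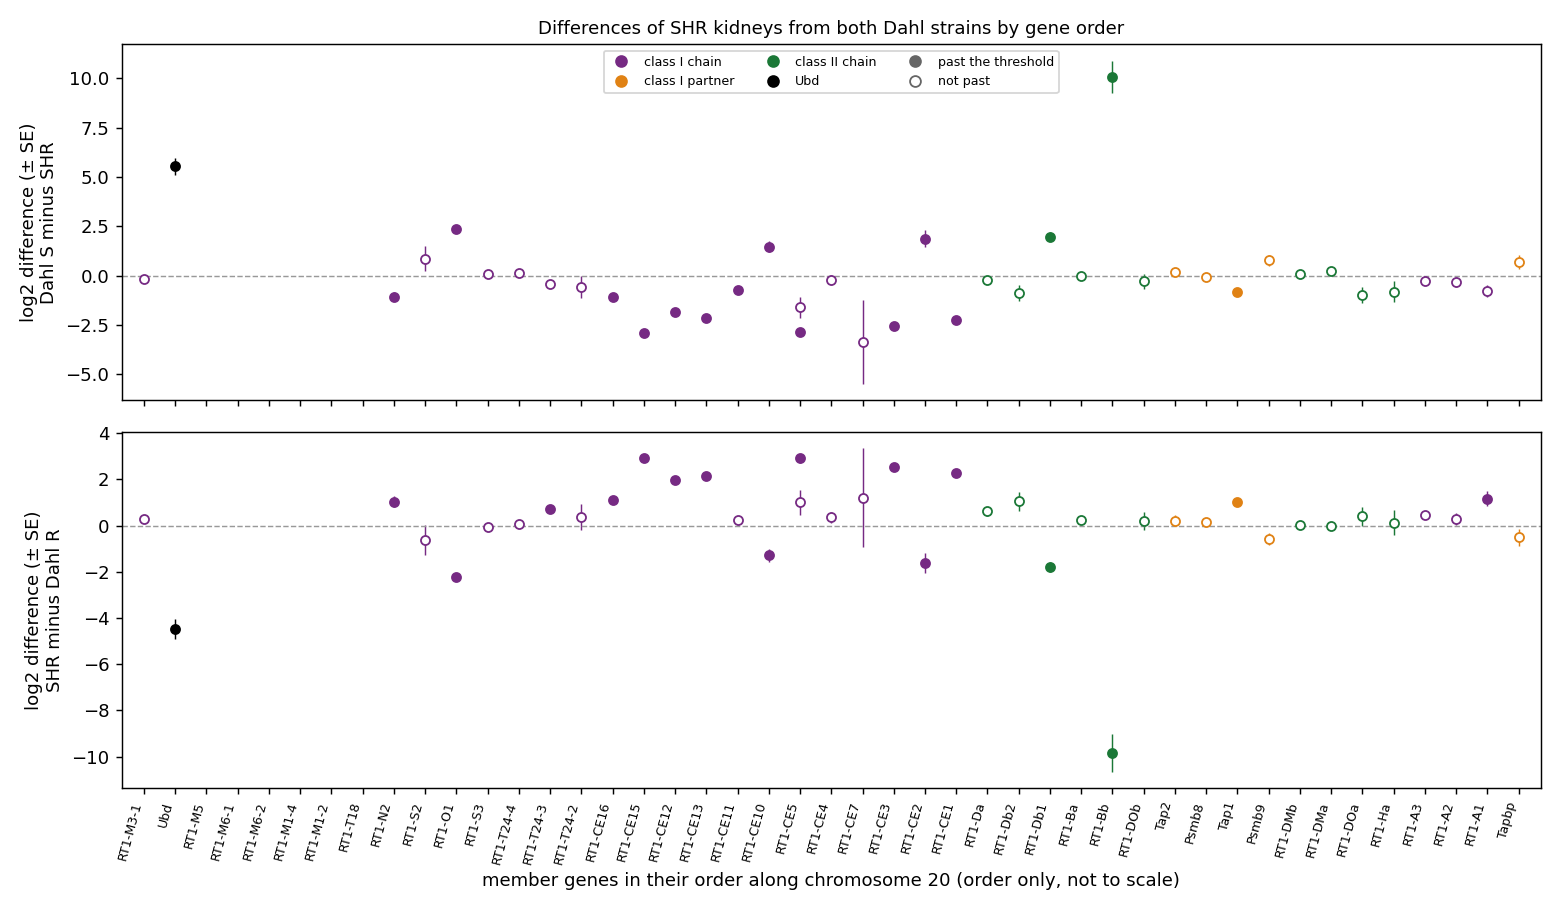
Difference in both comparisons with SHR (log2 units, with SE bars) for the member genes in their order along chromosome 20; the axis gives order only, colours give the role, and filled points passed an adjusted p of 0.05. RT1-CE10 and RT1-CE2 lie opposite in sign to the other called genes of the RT1-CE run, and called and uncalled genes lie side by side in the class II region.

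Other genes of antigen presentation were counted in 3 lists, beside 15.7% of all probes called between Dahl S and SHR and 13% between SHR and Dahl R. Of 13 other class I processing and chaperone genes tested, 1 was higher in Dahl S than in SHR, the chaperone Hspa5 (0.79 ± 0.18, adjusted p 0.0371), and 0 were called in the other comparisons. Among 16 class II processing and regulator genes, Dahl S exceeded SHR for 2, the protease Ctsl (0.73 ± 0.15, adjusted p 0.0205) and the factor Creb1 (0.51 ± 0.14, adjusted p 0.0425), and 1 was higher in SHR than in Dahl R, the RFX subunit Rfxap (0.48 ± 0.10, adjusted p 0.0183). Of 5 class I relatives outside RT1, Hfe was lower (-0.67 ± 0.12, adjusted p 0.00977) and Azgp1 higher (0.55 ± 0.15, adjusted p 0.0473) in Dahl S than in SHR, and Hfe was higher in SHR than in Dahl R (0.54 ± 0.12, adjusted p 0.0258). With the slide as a block, 0 genes of these 3 lists were called between Dahl S and SHR, beside 5.22% of all probes.

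The 2 interferon lists stand beside the same shares of all probes called. Among 17 genes of the interferon gamma pathway, Dahl S exceeded SHR for 2 chemokines, Cxcl10 (1.09 ± 0.21, adjusted p 0.013) and Cxcl11 (0.41 ± 0.11, adjusted p 0.0461), and 0 were called in the other comparisons. With the slide as a block both calls were lost. Their median difference between Dahl S and SHR was -0.01, beside -0.09 over all probes. Of 19 genes of the type I interferon response, 2 were higher and 3 lower in Dahl S than in SHR, 5 were higher and 2 lower in SHR than in Dahl R, and 1 was higher and 1 lower in Dahl S than in Dahl R. Ifit1, an antiviral protein induced by interferon, was above the scanner's background limit on 0 of the 6 Dahl arrays, and Dahl S was at least 67.1-fold lower than SHR (adjusted p 1.12e-05). Dtx3l was lower in Dahl S than in SHR (-6.25 ± 0.13, adjusted p 5.18e-07), and Ifi27 was higher (0.90 ± 0.11, adjusted p 0.00358). Mx2 was lower in Dahl S than in Dahl R (-3.03 ± 0.17, adjusted p 0.000167).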

How the data were processed

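The members and the gene lists were chosen with earlier results of these data known. The authors deposited the scanner output of 9 one-colour arrays. Per the submitters' processing notes the software was Agilent Feature Extraction, version 10.5.1.1. Per the file headers, the deposited processed signal is a background-subtracted intensity that was not normalized between arrays, and the deposited median signal is an intensity with no correction. The authors also deposited a table of log2 values, used only as an alternative, and its normalization is not given in the sources used here.

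Each processed intensity was divided by its array's 75th percentile over spots that are not controls, and log2 was taken. Spots marked as outliers were left out and spots of a probe averaged. A probe entered the test if, on 3 or more arrays, a share of 0.5 or more of its spots had the scanner's mark for well above background, and if no strain lacked a usable spot. This left 16592 of 24684 probes. One fit in limma 3.58.1 (R 4.3.3) held all 3 strains, with Benjamini-Hochberg adjustment over all tested probes, and was tested on simulated data. The number of arrays limits the precision.

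Symbols came from the RefSeq identifiers in the files, through a table of the GRCr8 assembly, for 14294 probes. Every member past the threshold is named, the class II chains, partners and Ubd whatever their test. From each list and from the genes between the RT1 genes, up to 5 past the threshold could be named by size of difference. The probe with the highest mean stands for a gene in list counts. Replicate numbers in the titles were checked for pairing: over 9 pairs of same-numbered samples, deviations from the strain means correlated with r of -0.16 to 0.061, and 0 pairs were over 0.1, so the numbers were not used as pairs.

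The alternatives were normexp background correction of the median signal, quantile normalization, the authors' table, another percentile, outlier spots kept, other filters, blocks for slide and replicate number, array weights, fits of 2 strains, and leaving out each array.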

Additional observations from a re-analysis of the deposited data

How the results depend on the processing

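The count of member probes past the threshold was 0 between Dahl S and Dahl R, 17 between Dahl S and SHR and 17 between SHR and Dahl R. Array quality weights gave 6 between Dahl S and Dahl R (5 higher, 1 lower) and a fit of only those strains gave 1, while every other alternative gave 0. Normexp background correction gave 11 between Dahl S and SHR and 10 between SHR and Dahl R. The cause was not tested. Leaving out 1 array gave 0 to 0, 12 to 22 and 12 to 19 calls in the order of the comparisons above, with both highest values without SHR replicate 3. The replicate number as a block, which the design does not support, gave 0, 15 and 13. Of the 17 calls in each comparison with SHR, 10 held under every alternative fitted, 5 were lost on leaving out an array, and 2 were lost under another setting only. Those were RT1-CE3 (normexp) and Tap1 (percentile over unmarked spots) between Dahl S and SHR, and RT1-CE16 and RT1-O1 (normexp) between SHR and Dahl R. In both comparisons, the calls of RT1-Bb, RT1-Db1, Ubd, RT1-CE1, RT1-CE12, RT1-CE13, RT1-CE15 and RT1-CE5 probe B were among the 10. No called difference turned its sign. Over all probes, the counts of 233, 2605 and 2165 calls became 43, 550 and 416 with normexp, 38, 618 and 490 with the percentile over unmarked spots, 93, 1491 and 1188 without the filter, and 2313, 6127 and 5340 with array weights. Fits of only the strains compared gave 746, 1076 and 1138, and leaving out SHR replicate 3 gave 761, 4340 and 3768. The slide block gave 866 between Dahl S and SHR, and the replicate block 75 between Dahl S and Dahl R and 1424 between SHR and Dahl R. Leaving out a Dahl array gave 74 to 125 between Dahl S and Dahl R, leaving out Dahl S replicate 2 or 3 gave 1317 or 1518 between Dahl S and SHR, and leaving out a Dahl R array gave 966 to 1158 between SHR and Dahl R. A block for scan day was not run separately, since the later day held only SHR replicate 3. Signals near background limit RT1-S2, RT1-T24-2, RT1-CE5 probe A, RT1-DOa, RT1-DOb and Ciita.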
